A study of Mus musculus with 8 samples.

Results

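The Wnt/β-catenin genes described here are 10 named components of the pathway, chosen by gene symbol: *Fzd7* and *Lrp6* (receptors), *Apc*, *Axin2* and *Gsk3b* (destruction complex), *Ctnnb1* (β-catenin), *Tcf7*, *Lef1* and *Tcf7l1* (TCF/LEF factors) and *Sp5* (a target gene). All 10 were found among the 17597 genes measured. RNA came from mouse ES cells of Cast x 129S background in which the endogenous METTL3 protein carries an FKBP12 F36V tag, a degron that lets the small molecule dTAG-13 send the protein for destruction. METTL3 is the catalytic subunit of the writer of N6-methyladenosine (m6A) on RNA, and the study asked which transcripts change soon after its loss. One group of 4 libraries came from cells given dTAG-13 for 26 h and the other 4 from untreated cells, and each group held 2 libraries from each of 2 clones, C3 and H5. All 8 libraries shared the tag, a TetOn promoter in place of the *Xist* promoter on 1 allele (129S by the labels, Cast by the study's description of the parent line), no doxycycline, serum medium with LIF, and mouse fibroblast feeders. The degron line is thus represented by 2 clones, the untagged parent line is no part of the comparison, and no vehicle control is named. The labels name total RNA as the molecule, as do the study's methods, whereas the extraction text of the labels describes chromatin RNA, and the values were read as total RNA.

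In the absence of a Wnt ligand, a destruction complex built on the scaffolds Axin and APC holds β-catenin so that casein kinase 1 and GSK3 can phosphorylate it, which marks it for degradation. Wnt binding to a Frizzled receptor and an LRP5 or LRP6 co-receptor inactivates the complex, β-catenin accumulates, enters the nucleus and joins TCF/LEF proteins on target genes such as *Axin2* and *Sp5*. In mouse ES cells the pathway supports self-renewal, and TCF7L1 acts there mainly as a repressor of pluripotency genes. Much of the signal is carried by phosphorylation and by protein stability, which RNA counts do not measure.

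The RefSeq promoter table (GRCm38.p6) held windows for 8 of the 10 genes. The 250 bases upstream of the transcription start are shown for the classical targets *Sp5* and *Axin2*, since TCF/LEF proteins recognise short sites of the form CTTTGAT or CTTTGAA. The *Sp5* window (chr2:70474673-70474922, plus strand) held 1 such match, in capitals below, 104 bases upstream of the start. The *Axin2* window (chr11:108920099-108920348, plus strand) held none on either strand.
Sp5: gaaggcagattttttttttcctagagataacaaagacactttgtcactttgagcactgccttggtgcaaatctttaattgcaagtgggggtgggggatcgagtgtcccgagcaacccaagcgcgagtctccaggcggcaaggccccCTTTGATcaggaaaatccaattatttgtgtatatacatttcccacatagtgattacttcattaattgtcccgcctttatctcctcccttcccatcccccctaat
Axin2: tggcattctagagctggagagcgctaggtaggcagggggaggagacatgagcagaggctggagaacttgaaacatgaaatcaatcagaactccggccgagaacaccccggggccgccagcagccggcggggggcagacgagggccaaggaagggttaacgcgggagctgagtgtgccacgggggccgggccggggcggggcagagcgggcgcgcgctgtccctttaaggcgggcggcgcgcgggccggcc
Of the 13 windows listed for these 8 genes, the *Sp5* window was the only one with a match. Of all 32851 promoter windows of the same length, 7.48% held at least 1 match to either sequence or its reverse complement (ATCAAAG or TTCAAAG). The match describes letters and not a bound site.

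Expression was deposited as the mean count of a gene over all 8 libraries after scaling for depth, without a value per library. The table does not say which group is the numerator: positive changes were read here as higher with dTAG-13, and every direction below would turn if the contrast were the other way round. The values below for each group are therefore approximations from that mean and the fold change, and neither the spread within a clone nor any overlap between the groups can be given. Gene mean counts summed to 14573411, of which the 10 genes made up 0.116%. The targeted gene *Mettl3* averaged 684 counts and did not pass the test (log2 fold change -0.092, SE 0.31, adjusted p = 0.886). The degron removes protein, so this RNA value does not check the treatment. All 10 ES cell markers on the list used were present, at mean counts of 1019 to 11934, the highest being *Pou5f1*. Of 12 fibroblast markers, which the feeders could bring, 5 had a mean count under 10, and the most abundant was *Fn1* (4941), which ES cultures can also express. Summed approximate levels without and with dTAG-13 were 70618 and 62554 for the ES cell markers, 8744 and 7743 for the fibroblast markers and 483 and 580 for 10 markers of streak, mesoderm and endoderm. The fibroblast sum was mostly *Fn1*, at about 5749 without and 4134 with dTAG-13. Next came *Sparc*, named after its values were seen, which went the other way, at about 2775 without and 3329 with dTAG-13. The median log2 fold change of the 12 fibroblast markers had the other sign (0.23). The part of these differences in the results below was not tested, and in bulk RNA fewer cells of a type cannot be told apart from less RNA per cell.

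*Ctnnb1* had the highest level of the 10 genes. It gave a mean count of 2173 per kb of exon, above 97.8% of coding genes that averaged 10 counts or more. The next genes were the receptor *Fzd7* at 171 per kb and the scaffold *Apc* at 148 per kb, and their order was not resolved, as the gap between them was smaller than the combined spread implied by their standard errors. The co-receptor *Lrp6* (95.2 per kb) and *Tcf7* (0.20 per kb below it) were also not separated. The kinase gene *Gsk3b* had 43.0 per kb, *Tcf7l1* 31.3 per kb, *Axin2* 27.7 per kb and *Lef1* 26.5 per kb, again with no neighbours apart by more than that spread. *Sp5* was lowest with 10.9 per kb, 199-fold under *Ctnnb1*. Among the TCF/LEF members *Tcf7* had the highest level per kb by merged exon length, 3.58-fold that of *Lef1* and 3.04-fold that of *Tcf7l1*. The place of *Lef1* in this order depends on the gene model, since its longest transcript is far shorter than its merged exons: by transcript length it had 63.8 per kb and ranked above *Gsk3b*, *Tcf7l1* and *Axin2*, and *Apc* (186 per kb) ranked above *Fzd7*.

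**Figure D1:**
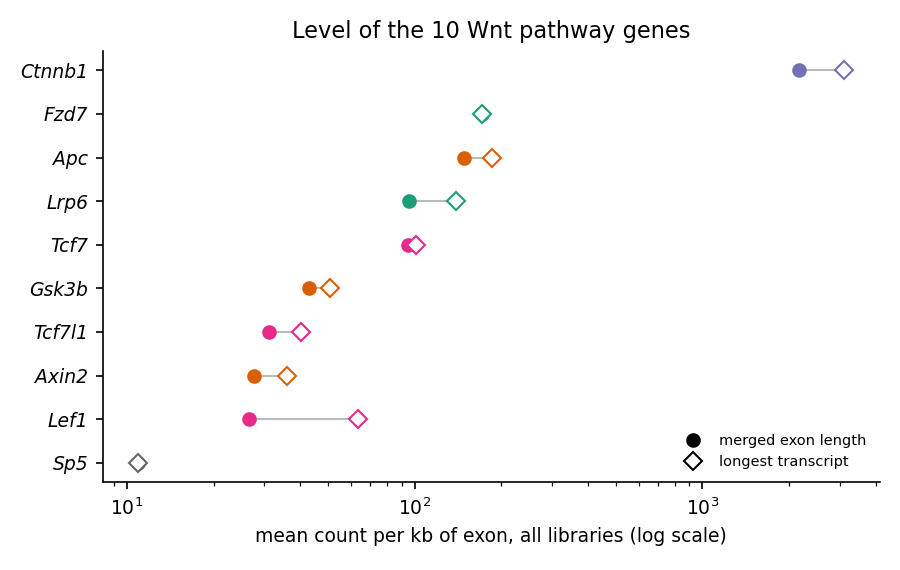
Mean count per kb of exon over all libraries (log scale) for the 10 genes, coloured by role, with the merged exon length of the gene (filled circles) or the longest transcript (open diamonds) as length. *Ctnnb1* (2173 per kb of merged exon) stands far above the rest and *Sp5* (10.9 per kb) lies lowest, and *Lef1* moves most between the 2 lengths.

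None of the 10 genes passed the threshold of an adjusted p under 0.05 in the authors' comparison of dTAG-13 with untreated cells, a Wald test adjusted over all genes and transposable elements. Of all genes, 20.0% passed it (3526 genes), 10.7% higher and 9.35% lower with dTAG-13, and of the 9899 genes that averaged 100 counts or more, as 9 of the 10 did, 28.3% passed. After subtraction of the median log2 fold change of these 9899 genes (-0.050), the split over all genes was 2200 higher and 1239 lower, or 64.0% higher in place of 53.3%. An unadjusted p under 0.05 was seen for 4 of the 10 genes, against 30.4% of all genes: *Axin2* on the higher side and *Ctnnb1*, *Lef1* and *Fzd7* on the lower. The fold change was above 0 in 4 of the 10 genes and below 0 in 6. The median log2 fold change of the 10 was -0.23, beside 0.025 over all genes and -0.050 over those averaging 100 counts or more. Adjusted p-values ran from 0.0539 to 0.844. A missed threshold does not show that the genes did not change, so the size of change that the data leave room for is given for each. For 9 genes, all but *Tcf7l1*, the 95% interval left out a 2-fold change in either direction, and for 2 genes, *Ctnnb1* and *Tcf7*, it also left out a 1.5-fold change. For *Lef1* this was marginal, as its lower bound (0.500) lay right at a 2-fold fall.

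**Figure D2:**
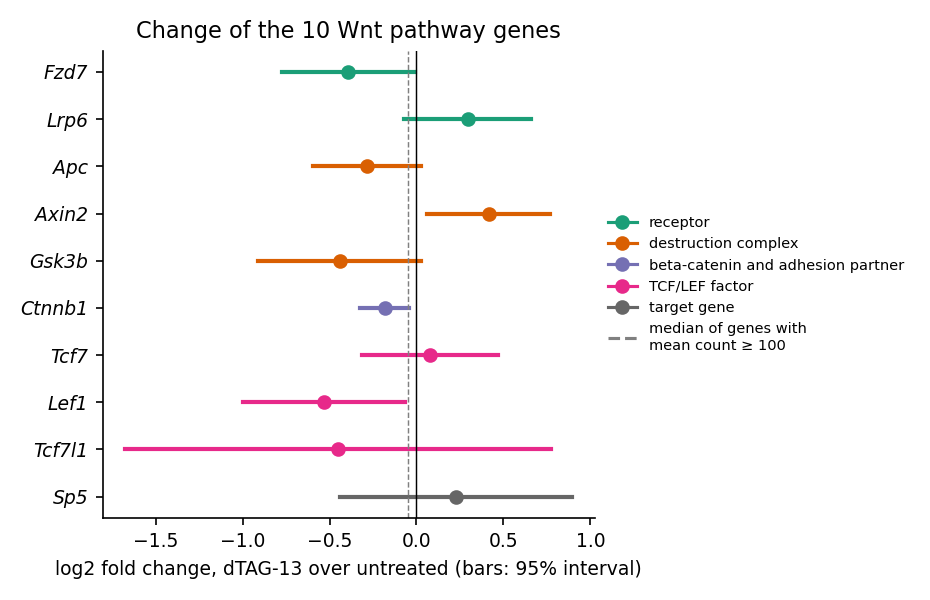
Log2 fold change with dTAG-13 over untreated (points) and its 95% interval (bars) for the 10 genes, coloured by role. The intervals of *Axin2*, *Ctnnb1*, *Lef1* and *Fzd7* leave out 0 before adjustment, that of *Ctnnb1* is the narrowest and that of *Tcf7l1* by far the widest, and the dashed line is the median of genes averaging 100 counts or more (-0.050).

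At the cell surface, the 2 receptor genes had changes of opposite sign. *Fzd7* encodes a Frizzled receptor of ES cells that binds Wnt ligands (chr1:59482424-59486955, plus strand, a single exon). Its approximate level was 881 counts without and 672 with dTAG-13, a log2 fold change of -0.39 (SE 0.20, adjusted p = 0.160), and the 95% interval of the fold change ran from 0.584 to 0.995. *Lrp6* encodes the co-receptor that docks Axin once a ligand is bound (chr6:134446476-134566965, minus strand, 23 exons). Its approximate level was 1169 counts without and 1434 with dTAG-13, a log2 fold change of 0.29 (SE 0.19, adjusted p = 0.294). The interval of the *Lrp6* fold change, 0.953 to 1.58, held no change. For passing the threshold at their standard errors, *Fzd7* would have needed a 1.42-fold and *Lrp6* a 1.40-fold change.

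The destruction complex genes did not share a direction either. *Apc* encodes the large scaffold that binds β-catenin (16 exons). Its approximate level was 2619 counts without and 2148 with dTAG-13, a log2 fold change of -0.29 (SE 0.16, adjusted p = 0.218), with a fold interval of 0.661 to 1.02. *Gsk3b* encodes the kinase that phosphorylates β-catenin (chr16:38089001-38246084, plus strand, 11 exons in the transcript used), and its 3′ untranslated region of 5515 bases is longer than that of 96.9% of coding genes. It stood at about 486 counts without and 358 with dTAG-13, a log2 fold change of -0.44 (SE 0.24, adjusted p = 0.204; fold interval 0.533 to 1.02). *Axin2* encodes the inducible Axin and is at once part of the complex and a feedback target of the pathway (chr11:108920349-108950783, plus strand, 11 exons). Its approximate level was 131 counts without and 175 with dTAG-13, a log2 fold change of 0.41 (SE 0.18, adjusted p = 0.0938). The *Axin2* interval, 1.04 to 1.71, lay above no change before adjustment, and a 1.38-fold change would have been needed to pass against the 1.33-fold measured. *Apc* and *Gsk3b* were thus on the lower side with intervals that held no change, and *Axin2* on the higher side.

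*Ctnnb1* (chr9:120929216-120960507, plus strand, 15 exons) came nearest to the threshold. Its approximate level was 11997 counts without and 10572 with dTAG-13, a log2 fold change of -0.18 (SE 0.071, adjusted p = 0.0539). The fold interval ran from 0.800 to 0.971 around the measured 0.881-fold level. It covers the standard error alone and not the choice of normalisation. *Ctnnb1* had an implied spread between libraries of 6.93%, and only 1.33% of the 375 genes nearest to it in mean count had a smaller standard error. Its call depends on the filter: with p adjusted only over features averaging 10 or 100 counts and more, the adjusted p was 0.0425 or 0.0377. It also depends on the trend of the fold change with abundance, as the log2 fold change was 0.0054 (adjusted p = 0.975) once that trend was removed. *Ulk4*, a gene on the opposite strand with a mean count of 105, overlaps *Ctnnb1* by 5157 bases of gene span, introns included.

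The TCF/LEF factors, which bring β-catenin to DNA, were all of modest level and none passed. *Lef1*, an activating factor (chr3:131110471-131224356, plus strand), had the fold change farthest from 0 among the 10 genes as reported, though with the GC trend removed *Tcf7l1* lay farther (-0.68 against -0.55), and neither passed. *Lef1* stood at about 276 counts without and 191 with dTAG-13, a log2 fold change of -0.53 (SE 0.24, adjusted p = 0.104), with a fold interval of 0.500 to 0.956. *Tcf7*, which encodes TCF1 (chr11:52252371-52283014, minus strand), stood at about 243 counts without and 256 with dTAG-13, a log2 fold change of 0.079 (SE 0.20, adjusted p = 0.844). Its fold interval was 0.805 to 1.39, so that a change of 1.5-fold in either direction lay outside it. *Tcf7l1*, which encodes the repressor TCF3 of ES cells (chr6:72626378-72789254, minus strand), stood at about 142 counts without and 104 with dTAG-13, a log2 fold change of -0.45 (SE 0.63, adjusted p = 0.695). Its interval, 0.313 to 1.71, reached beyond a 2-fold difference on the lower side. The *Tcf7l1* standard error was above that of 99.8% of the 500 genes nearest in mean count, whose median was 0.19, and it implied a spread between libraries of 60.6%. Which libraries carried that spread cannot be read from a mean, and a 3.07-fold change would have been needed to pass. The fourth factor of the family, *Tcf7l2*, averaged 69.7 counts, and its log2 fold change was -0.55 (SE 0.39, adjusted p = 0.368).

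*Sp5* encodes a zinc finger factor that is induced directly by β-catenin (chr2:70474923-70477729, plus strand, 2 exons). Its approximate level was 21.1 counts without and 24.7 with dTAG-13, a log2 fold change of 0.23 (SE 0.34, adjusted p = 0.722). The fold interval, 0.736 to 1.86, left out a doubling but not smaller changes, and its sign turned (-0.078, adjusted p = 0.918) once the trend of the fold change with GC content was removed. At 62.0% GC the *Sp5* transcript is richer in G and C than 98.1% of coding genes. Neither classical target among the 10 genes, *Axin2* or *Sp5*, thus passed the threshold. *Axin2* was on the higher side in all settings tried, while the side of *Sp5* depended on the setting.

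**Figure D3:**
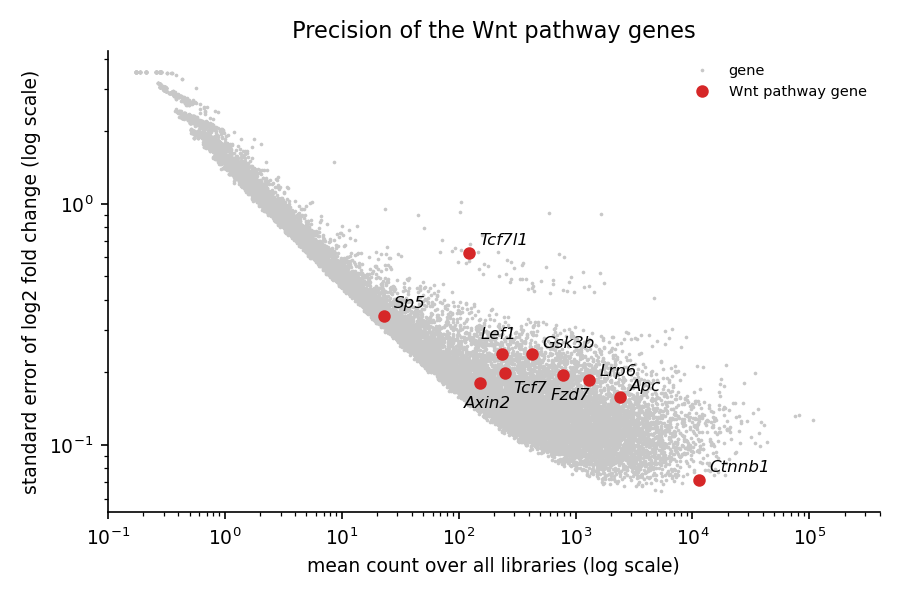
Standard error of the log2 fold change against mean count (both on log scales) for all genes (grey) and the 10 Wnt genes (red). *Ctnnb1* (0.071) lies at the lower edge of the cloud and *Tcf7l1* (0.63) well above genes of its level, while *Sp5* (0.34) lies near the middle of genes of its low count.

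Precision differed among the genes, also beside genes of similar level. The standard errors of *Lef1*, *Gsk3b*, *Fzd7*, *Lrp6*, *Apc* and *Tcf7* were above those of 82.2% to 93.6% of genes with similar mean counts, with an implied spread between libraries of 15.4% to 22.9%. *Axin2* (52.6%) and *Sp5* (42.4%) lay near the middle. The 10 transcripts also differed in the letters GGACT, a frequent core of m6A sites, which 92.7% of the 13036 transcripts searched held at least once. *Lrp6* held 19 and *Gsk3b* 9, *Fzd7* and *Lef1* 1 each, and per kb *Sp5* (2.38) had most and *Fzd7* (0.22) fewest. Such a match is no measured m6A site, and methylation was not analysed here. By whole gene span, introns included, an annotated gene on the opposite strand overlaps 7 of the 10 genes, *Fzd7*, *Lrp6* and *Sp5* being the exceptions. Overlap within exons was not measured. Some of the 10 also overlap a gene on the same strand, as *Tcf7* does a lincRNA by 17144 bases. It is unclear if the counting took strand into account, so any reads of opposite-strand partners that fall in exons cannot be told apart.

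Around these 10 genes, a wider list of 113 Wnt pathway genes was read, of which 110 were measured. Of these, 20 were higher (18.2%) and 7 lower (6.36%) with dTAG-13 at an adjusted p under 0.05, or 24.5% in all, beside 20.0% of all genes. Their median log2 fold change was 0.15, with 69 of 110 above 0. The 20 higher genes had a median GC content of 56.5% and the 7 lower ones 46.8%, beside 50.4% for coding genes averaging 10 counts or more. With the GC trend removed, 12 of the 20 and 6 of the 7 were still past the threshold, and 11 of the 27 genes had a mean count under 100. With the abundance trend removed, 15 of the 20 and 5 of the 7 were still past it, those lost being *Fzd6* (adjusted p = 0.0866), *Ror2* (0.101), *Wnt3a* (0.116), *Nkd2* (0.176), *Wnt6* (0.0549), *Tnks* (0.0728) and *Smarca4*. Other genes came past the threshold in these settings. With them the wider list gave 15 higher and 9 lower genes with the GC trend removed. With the abundance trend removed it gave 20 higher and 6 lower. The counts by role that follow are to be read beside the shares over all genes, 10.7% higher and 9.35% lower, and were not tested against them.

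**Figure D4:**
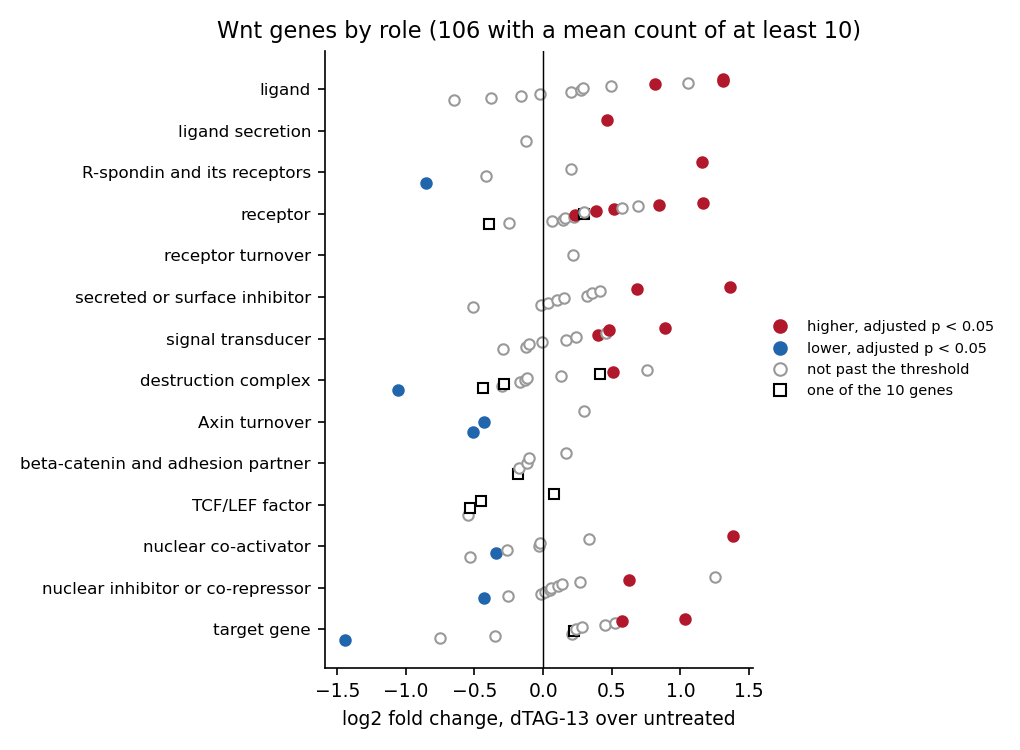
Log2 fold change with dTAG-13 over untreated for the 106 Wnt genes averaging 10 counts or more, including the 10 genes (squares), arranged by role; filled red or blue points are higher or lower at an adjusted p under 0.05. The 15 receptors hold 5 red points and no blue one (33.3% past the threshold). β-catenin with its adhesion partners (5 genes) and the TCF/LEF factors (4 genes) hold none of either. Over all genes 20.0% passed, and these small groups were not tested against that share.

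Among ligands and their helpers, 3 of 18 Wnt genes rose and none fell, or 16.7% past the threshold beside 20.0% of all genes. *Wnt4* (log2 fold change 1.31, SE 0.26, adjusted p = 9.88e-06) and *Wnt6* (0.82, SE 0.26, adjusted p = 0.0125) were low, at mean counts of 72.3 and 49.5, and *Wnt6* was no longer past the threshold with the GC trend removed (adjusted p = 0.158). The third was *Wnt3a*, at a mean count of 12.5 (1.31, adjusted p = 0.0411; 0.0901 with the GC trend removed). It was named after its values were seen, as were *Ror2*, *Fzd6*, *Nkd2*, *Cdx4* and *Tnks* below, so that all 27 genes past the threshold have a name. The most abundant ligand, *Wnt7b* (mean count 261), had 0.29 on the same scale (adjusted p = 0.442). *Wls*, which carries Wnt proteins to the cell surface, rose by 0.47 on the log2 scale (SE 0.10, adjusted p = 1.26e-04), and *Porcn*, which acylates them, had -0.13 (adjusted p = 0.509). Of 7 genes of the R-spondin group, secreted enhancers and their receptors, *Rspo1* rose (1.16, adjusted p = 0.00826) and *Rspo3* fell (-0.85, adjusted p = 0.0159). The receptor *Lgr4*, the most abundant of them (mean count 1831), had -0.41 (adjusted p = 0.0552). *Rspo1* was no longer past the threshold with the GC trend removed (adjusted p = 0.0510).

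Of 13 receptor genes besides *Fzd7* and *Lrp6*, 5 rose and none fell, or 38.5% past the threshold. *Fzd2* had the largest of these changes (1.16, SE 0.29, adjusted p = 8.23e-04), and *Fzd9* rose by 0.85 (adjusted p = 0.0136; 0.172 with the GC trend removed). *Ryk*, a receptor with an inactive kinase domain and the most abundant of them (mean count 1742), rose by 0.23 (adjusted p = 0.0324). The others were *Fzd6* (0.39, adjusted p = 0.0485) and *Ror2*, a receptor of the non-canonical branch (0.52, adjusted p = 0.0462; 0.332 with the GC trend removed). With that trend removed *Fzd9* and *Ror2* were lost, while *Fzd3* (adjusted p = 0.0482) and *Fzd4* (0.0351), named after their values were seen, were past the threshold. Neither of 2 genes for receptor turnover passed, *Znrf3* having 0.22 (adjusted p = 0.432). Of 12 inhibitors at the surface, *Sfrp5*, a secreted Wnt-binding protein, rose by 1.36 (SE 0.20, adjusted p = 2.85e-09) and *Apcdd1* by 0.69 (adjusted p = 0.0101). *Sfrp1*, the most abundant inhibitor (mean count 719), had -0.017 (adjusted p = 0.965).

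Inside the cell, 3 of 10 signal transducers rose. *Csnk1e*, a casein kinase that acts on Dishevelled, had the smallest p of the whole wider list (log2 fold change 0.89, SE 0.11, adjusted p = 2.95e-14), and *Csnk1g3*, a kinase of LRP6, rose by 0.40 (adjusted p = 0.0149). *Dvl1*, a Dishevelled, rose by 0.48 (adjusted p = 0.0202, or 0.423 with the GC trend removed). The abundant *Csnk1g2* had 0.24 (adjusted p = 0.133, or 0.0206 with the abundance trend removed). Of 8 destruction complex genes besides the 3 described, the scaffold *Axin1* rose by 0.51 (SE 0.12, adjusted p = 5.38e-04), and *Amer1*, which binds APC at the membrane, fell (-1.06, SE 0.18, adjusted p = 2.83e-07). *Csnk1a1*, the priming kinase of β-catenin (mean count 4054), had -0.30 (adjusted p = 0.0526). Of 3 genes for Axin turnover, both tankyrases fell, *Tnks2* with a log2 fold change of -0.43 (SE 0.088, adjusted p = 2.88e-05) and *Tnks* with one of -0.51 (adjusted p = 0.0397). Tankyrase marks Axin for degradation. The adjusted p of *Tnks* was 0.0723 after re-centring and 0.0901 with the GC trend removed.

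None of 4 adhesion partners of β-catenin passed, *Ctnna1* (mean count 8224) having -0.10 (adjusted p = 0.534). This depends on the setting, as shown by 2 partners named after their values were seen. *Jup* was lower past the threshold with the GC trend removed (adjusted p = 0.00532). *Cdh1* was higher past it with the abundance trend removed (adjusted p = 0.00895). Of 7 nuclear co-activators, *Pygo1*, a reader of methylated histone H3 that joins β-catenin through BCL9, rose (1.39, SE 0.35, adjusted p = 0.00117) at a mean count of 20.7. *Smarca4*, a chromatin remodelling ATPase, fell (-0.35, adjusted p = 0.00967), and was not past the threshold with the abundance trend removed (adjusted p = 0.173). Of 11 co-repressors and nuclear inhibitors, *Tle4*, a Groucho co-repressor of TCF proteins, fell (-0.43, SE 0.11, adjusted p = 0.00116) and *Tle6* rose (0.63, adjusted p = 0.0110; 0.0577 with the GC trend removed). The abundant *Ctbp2* had 0.13 (adjusted p = 0.412, or 0.0415 with the abundance trend removed). Of 12 target genes besides *Sp5*, 2 rose and 1 fell. *Ascl2*, a basic helix-loop-helix factor, rose by 1.04 (SE 0.26, adjusted p = 9.21e-04) at a mean count of 51.3. *Nkd2*, a feedback inhibitor, rose by 0.58 (adjusted p = 0.0498; 0.0984 with the GC trend removed), and *Cdx4*, a homeobox factor at a mean count of 13.2, fell (-1.44, SE 0.51, adjusted p = 0.0302). The most abundant target, the cyclin gene *Ccnd1* (mean count 3406), had 0.24 (adjusted p = 0.0709, or 0.00185 with the abundance trend removed).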

How the data were processed

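Total RNA was sequenced by the authors with a stranded kit after rRNA depletion. Per the study's methods, rRNA reads were removed with bowtie2, pairs were aligned with STAR to the N-masked mm10 genome, unique alignments were kept, duplicates were removed with Picard, and features were counted with TEtranscripts. The comparison was made by the authors, per the methods at the default parameters of TEtranscripts, which ignore strand and run the Wald test of DESeq2 over all libraries. The table's name carries the word reverse, which could mean a strand setting other than that default or an inverted contrast. It is thus unclear if strand was ignored, and the numerator is not named. Positive values were read as higher with dTAG-13, and every direction would flip under the other reading.

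The authors deposited only their own comparison, for 18694 features (17597 genes, 1097 transposable element subfamilies): a signal column (mean normalised count over 8 libraries), log2 fold changes with standard errors, a Wald score, and p-values with Benjamini-Hochberg adjustment. These deposited log2, score and p-value columns were copied, and no model was refitted to counts. In all 18694 features the score and p-values followed from the fold change and its SE. Depth per library is unknown. The study describes its RNA-seq replicates in general as independent clones or repeats. The methods name no clone term, so the 2 libraries of a clone in each group were read as separate replicates. The p-values thus rest on the spread between libraries and do not measure how far the result repeats between clones.

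Untreated levels were approximated as mean × 2/(1 + fold), and intervals are normal intervals from the SE. The implied spread is the between-library SD that the SE allows beyond counting noise, the fold needed to pass came from the smallest statistic past the threshold (2.59 in absolute value), and precision was ranked among up to 250 genes on each side in mean count. Positions and lengths are from GENCODE vM21 (GRCm38, the build of mm10; 98.7% of genes matched by symbol), with the longest protein-coding transcript for GC, exons and GGACT. Alternatives were re-centring on the median of genes averaging 100 counts or more, removal of a lowess trend (span 0.3) on GC or log mean count, filters at mean counts of 10 and 100, adjustment over genes alone, and other thresholds (Python 3.11.15, scipy 1.17.1, statsmodels 0.14.6; tested on simulated data). The members and gene lists were chosen with earlier results of these data known. Named genes were the 10 members, the 20 of the wider list with the smallest p past the threshold, the most abundant gene of each role and of the ES cell and fibroblast lists, and *Mettl3*, with other names marked as chosen later.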

Additional observations from a re-analysis of the deposited data

How the results depend on the processing

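Across 59 combinations of a member and an alternative, 55 kept the sign and the side of the threshold. The count of the 10 genes past the threshold, 0 as reported, was 1 (*Ctnnb1*, lower; adjusted p = 0.0425 and 0.0377) with p adjusted over features with a mean count of at least 10 or at least 100, which leaves fewer features to adjust over, and 2 (*Ctnnb1* and *Axin2*) at an adjusted p under 0.1. Signs turned for *Ctnnb1* with the abundance trend removed (log2 fold change 0.0054) and for *Sp5* with the GC trend removed (-0.078), and the cause was not tested. The wider list gave 13 genes in place of 27 at an adjusted p under 0.01 and 15 with a change of at least 1.5-fold, and all genes gave 2230 and 1599 in place of 3526. Removing the GC trend left 52.8% and removing the abundance trend 56.2% of called genes on the higher side. No paired analysis was possible because the deposited table holds no value per library. For the same reason no library could be left out, clones could not be compared, and no other count model or normalisation could be run. The low count of *Sp5* (mean 22.9) and the spread of *Tcf7l1* limit what these libraries can detect.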

Other observations

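Of the 10 streak, mesoderm and endoderm markers, 2 were higher and 1 lower past the threshold, beside 20.0% of all genes past it (10.7% higher, 9.35% lower); these marker counts and those that follow were not tested against that share. All genes of this paragraph were named after their values were seen. *T*, which encodes Brachyury and is a target of Wnt signalling in the primitive streak, fell from about 131 to 70.6 counts (log2 fold change -0.89, SE 0.24, adjusted p = 0.00230). *Eomes*, a T-box factor of the same stage, rose from about 235 to 381 counts (0.70, SE 0.16, adjusted p = 1.70e-04), and *Foxa2*, a factor of endoderm, from about 14.5 to 33.8 counts (1.23, SE 0.46, adjusted p = 0.0434). Of the 10 ES cell markers, *Tdgf1* (-0.35, adjusted p = 0.00728) and *Dppa5a* (-0.40, adjusted p = 0.00937) fell and 8 did not pass. Among the 12 fibroblast markers only *Twist1* passed (0.79, adjusted p = 0.0146).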
